A study of Mus musculus with 18 samples.

Results

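The genes described here carry fatty acid oxidation in mitochondria and peroxisomes. They were taken as a list of 32 gene symbols, out of 17267 symbols in the deposited tables. The rule itself used no measured value, but the members were chosen with earlier results of these data known. By their roles 20 are mitochondrial, 7 are peroxisomal, 1 is a cytosolic thioesterase (Acot1) and 4 are regulators, and all 32 were measured and tested in both tables. Poly(A) RNA of preadipocytes, cells that can become adipocytes, from the epididymal white fat of wild type mice was sequenced in 18 libraries, 3 in each of 6 groups. Cells of control diet (CD) mice received TGF-b1 with SB431542, TGF-b1 alone, or mock treatment. TGF-b1 is a cytokine that drives fibroblasts towards matrix production, and SB431542 blocks the kinase of its type I receptor. Mock-treated cells of high fat diet (HFD) mice formed a further group. The last 2 groups were sorted by an antibody against integrin alpha 5 (CD49e, the product of Itga5) into Itga5-High and Itga5-Low cells and then put through adipogenic differentiation. No SB431542 group without TGF-b1 was analysed here, and the labels give no dose, time or age.

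Mitochondrial beta-oxidation begins when Cpt1a couples a long-chain acyl group to carnitine, Slc25a20 carries it across the inner membrane and Cpt2 returns it to CoA. Acyl-CoA dehydrogenases of graded chain length, hydratases, dehydrogenases and thiolases then shorten the chain, and the electrons pass through the electron transfer flavoprotein (Etfa, Etfb) and Etfdh to the respiratory chain. Peroxisomes take in very long-chain and branched acyl groups through the transporters Abcd2 and Abcd3 and shorten them with enzymes of their own. Ppara is a nuclear receptor that many of these genes answer to in liver, Ppargc1a and Ppargc1b are its coactivators, and Pdk4 inhibits pyruvate dehydrogenase, which spares glucose. In white fat cells the pathway runs beside lipid storage, and Ppargc1a is best known there for thermogenic, beige adipocytes.

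Levels are given as CPM (counts scaled to a common library size), and levels of different genes are compared only as TPM, which also divides by transcript length. Total counts ran from 11154426 to 17288580 per library. Replicates differed by little more than counting noise (chi-square over its degrees of freedom 1.15 to 1.26 in 18 pairs). Nothing in the labels ties a replicate to an animal or a culture of its own, and the p-values measure spread among libraries that may be only technical. A gene is called when edgeR's quasi-likelihood test gives an adjusted p under 0.05 over all genes tested. The preadipocyte and fibroblast markers were present in every group, with summed levels from 5095 to 28220 CPM over single libraries. Macrophage, mesothelial and endothelial markers were also found in the undifferentiated cells, while 6 of 7 lymphocyte markers were at 0 or not measured. Pericyte and smooth muscle markers were found there too. Their mean sums were 790.4 CPM with TGF-b1 and SB431542, 559.6 CPM with TGF-b1, 410.7 CPM in HFD mock and 467.5 CPM in CD mock. Because these are bulk libraries, fewer cells of a type and less RNA per cell cannot be told apart.

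Per transcript length, the flavoprotein subunit Etfb had the highest level of the 32 genes in CD mock, at 145.9 ± 6.77 TPM (SD, n = 3 libraries). The hydratase Echs1 followed at 128.2 ± 3.18 TPM and the trifunctional protein subunit Hadha at 123.3 ± 2.59 TPM. Echs1 and Hadha differed by less than their SDs added together. Ppara and Ppargc1a were at the other end of the order, with 0.749 ± 0.0635 and 0.659 ± 0.109 TPM in CD mock, also within their spread of each other. Peroxisomal enzymes spanned a wide range, and in CD mock the thiolase Acaa1a had 75.8 ± 3.16 TPM while the transporter Abcd2 had 2.42 ± 0.334 TPM. In the differentiated cells Etfb again stood highest, with 376.5 ± 8.2 TPM in Itga5-High and 370.0 ± 15.3 TPM in Itga5-Low. The very long-chain dehydrogenase Acadvl came next, with 223.4 ± 2.19 TPM in Itga5-High and 257.7 ± 3.29 TPM in Itga5-Low. The tables of undifferentiated and differentiated cells were normalized separately, so no difference between them was tested.

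**Figure D1:**
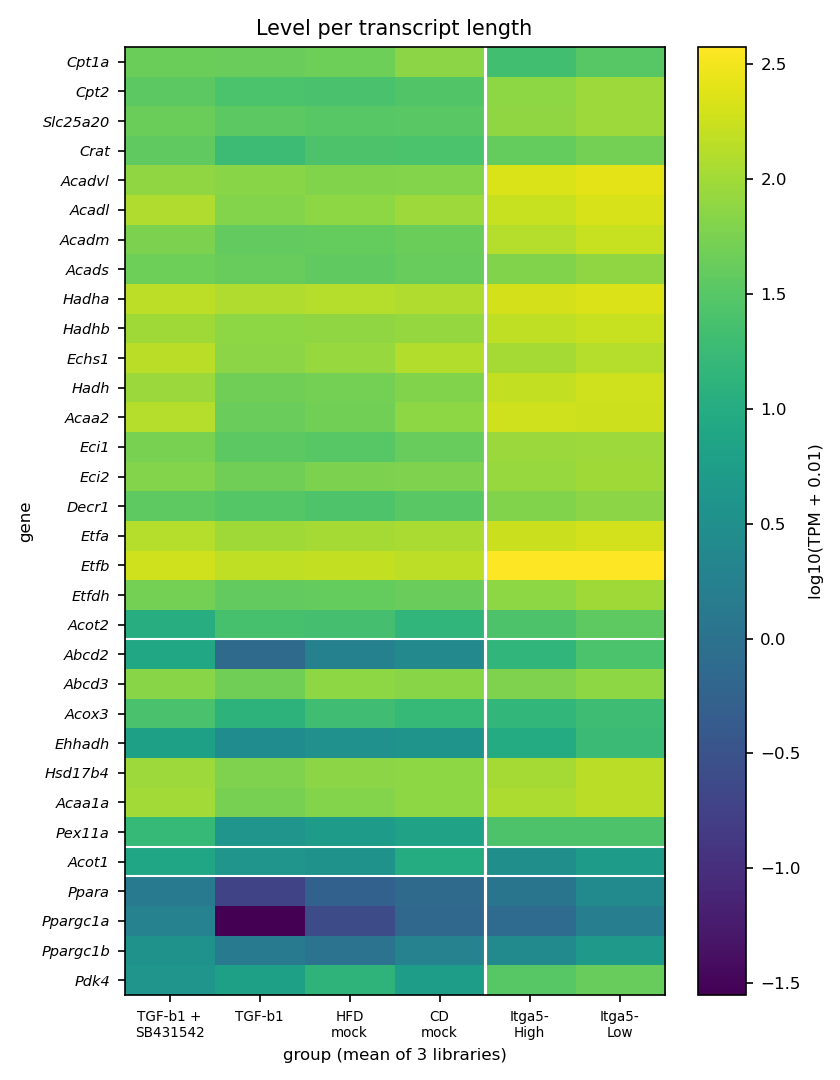
Mean TPM of each gene (rows, mitochondrial, peroxisomal, cytosolic and regulator genes from the top) in the 6 groups (columns, mean of 3 libraries), as log10(TPM + 0.01). Ppara and Ppargc1a near the bottom are dark, and Ppargc1a with TGF-b1 is the darkest cell, while Etfb is bright in every column.

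The stretch before the start of 6 of these genes is shown for reasons that differ by gene. Hadhb shares its promoter region with Hadha, Acot2 and Acot1 are paralogs whose levels moved apart in 3 comparisons, Ppargc1a was close to 0 with TGF-b1, Cpt1a sets the rate of the pathway, and Ehhadh held the 1 relaxed direct repeat found. Sequences are RefSeq's for build GRCm38.p6, the 250 bases before the annotated start, 5′ to 3′ on the gene's own strand. Hadhb lies head to head with Hadha, with 273 bases between the annotated starts. In Hadhb the capitals mark the bases that also belong to the promoter window of Hadha. In Acot2 and Acot1 the capitals mark a CCAAT box (CCAAT on either strand), in Ppargc1a the core TGACG of a cAMP response element on either strand, in Cpt1a the nuclear receptor element AGGTCA on either strand, and in Ehhadh a relaxed direct repeat 1, the type of element that Ppara binds with its partner Rxra. The regions are chr5:30155003-30155252 (+) for Hadhb, chr12:83987611-83987860 (+) for Acot2, chr12:84009252-84009501 (+) for Acot1, chr5:51567726-51567975 (-) for Ppargc1a, chr19:3323051-3323300 (+) for Cpt1a and chr16:21787835-21788084 (-) for Ehhadh.
Hadhb: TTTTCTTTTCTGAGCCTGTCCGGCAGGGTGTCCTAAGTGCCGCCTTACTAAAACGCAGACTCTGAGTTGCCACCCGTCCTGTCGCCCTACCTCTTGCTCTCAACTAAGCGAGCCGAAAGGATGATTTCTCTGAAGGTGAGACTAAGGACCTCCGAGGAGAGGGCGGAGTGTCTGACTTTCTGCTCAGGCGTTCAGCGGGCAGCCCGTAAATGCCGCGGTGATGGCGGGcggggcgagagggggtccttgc
Acot2: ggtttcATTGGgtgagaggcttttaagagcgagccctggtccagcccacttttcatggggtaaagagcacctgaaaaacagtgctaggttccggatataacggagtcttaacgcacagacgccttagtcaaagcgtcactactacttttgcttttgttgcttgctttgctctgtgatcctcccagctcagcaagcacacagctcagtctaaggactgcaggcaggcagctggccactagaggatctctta
Acot1: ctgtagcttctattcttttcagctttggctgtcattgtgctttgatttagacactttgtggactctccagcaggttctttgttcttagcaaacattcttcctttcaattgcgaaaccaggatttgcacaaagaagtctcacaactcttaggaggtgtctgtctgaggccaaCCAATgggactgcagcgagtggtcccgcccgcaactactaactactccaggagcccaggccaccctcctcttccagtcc
Ppargc1a: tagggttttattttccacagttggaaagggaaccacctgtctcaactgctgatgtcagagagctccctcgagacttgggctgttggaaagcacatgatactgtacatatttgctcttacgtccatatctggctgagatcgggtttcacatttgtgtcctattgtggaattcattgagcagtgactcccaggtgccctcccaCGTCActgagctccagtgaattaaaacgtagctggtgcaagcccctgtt
Cpt1a: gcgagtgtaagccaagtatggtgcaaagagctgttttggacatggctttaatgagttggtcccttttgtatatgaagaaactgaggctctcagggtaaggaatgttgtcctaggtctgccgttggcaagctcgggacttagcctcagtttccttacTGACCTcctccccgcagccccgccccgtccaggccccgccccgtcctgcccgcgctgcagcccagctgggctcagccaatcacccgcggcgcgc
Ehhadh: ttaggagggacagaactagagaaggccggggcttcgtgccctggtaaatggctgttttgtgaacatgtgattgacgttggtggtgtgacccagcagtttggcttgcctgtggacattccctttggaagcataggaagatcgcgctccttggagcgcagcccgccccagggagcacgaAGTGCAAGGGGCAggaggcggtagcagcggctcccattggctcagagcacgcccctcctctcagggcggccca
Promoter windows of 300 bases (250 before and 50 after the start) were on hand for 26 of the 32 genes, 27 windows in all. AGGTCA was found in 4 of these windows, those of Acadm, Acadvl, Cpt1a and Echs1, against 16.3% of all 32851 windows. The strict direct repeat AGGNCANAGGNCA was in 0 of the 27 windows and in 0.381% of all. The relaxed form allows A or G at the first base and G or T at the third and the fourth of each repeat, and was in the Ehhadh window alone among the 27, against 0.633% of all windows. TGACG was found in 9 of the 27 windows, against 20.8% of all, and CCAAT in 11, against 37.4%. A match is only a description of these letters.

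With TGF-b1 the changes in Ppargc1a and Ppara were larger than in any mitochondrial gene. Of the 32 genes 6 were higher with TGF-b1 than in CD mock, against 33.4% of all genes tested, 15 were lower, against 34.2%, and 11 were not called. The median log2 fold change was -0.144 over the 32 genes and -0.017 over all genes. Ppargc1a, Ppara, Abcd2 and Acot1 fell, each by more than 1 on the log2 scale, and no gene rose by that much.

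Ppargc1a was close to 0 with TGF-b1. This coactivator had 0, 0.0887 and 0.0674 CPM with TGF-b1, or 2 counts over the 3 libraries, against 1.67, 1.415 and 1.97 CPM in CD mock, or 62 counts. The scaled ratio of these counts was 0.0317 (95% interval for counting error 0.00376 to 0.119), with an adjusted p of 9.75e-10. Ppara had 0.597, 0.443 and 0.742 CPM with TGF-b1 and 2.197, 2.335 and 1.97 CPM in CD mock. Every TGF-b1 library was below every CD mock library for both genes, and the log2 fold change of Ppara was -1.83 ± 0.34 (SE, adjusted p = 1.64e-06). Ppargc1b, the related coactivator, had 6.40, 6.12 and 7.55 CPM with TGF-b1 and 7.56, 7.64 and 7.88 CPM in CD mock, and was not called (-0.19 ± 0.135, adjusted p = 0.222), although with total-count scaling it was called lower (-0.334, adjusted p = 0.0267). Pdk4 went the other way, with 9.21, 9.31 and 10.32 CPM with TGF-b1 and 7.73, 7.50 and 7.71 CPM in CD mock (0.34 ± 0.112, adjusted p = 0.00704). That call was lost without TGF-b1 replicate 3 (0.280, adjusted p = 0.0544) and with total-count scaling (0.191, adjusted p = 0.124).

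**Figure D2:**
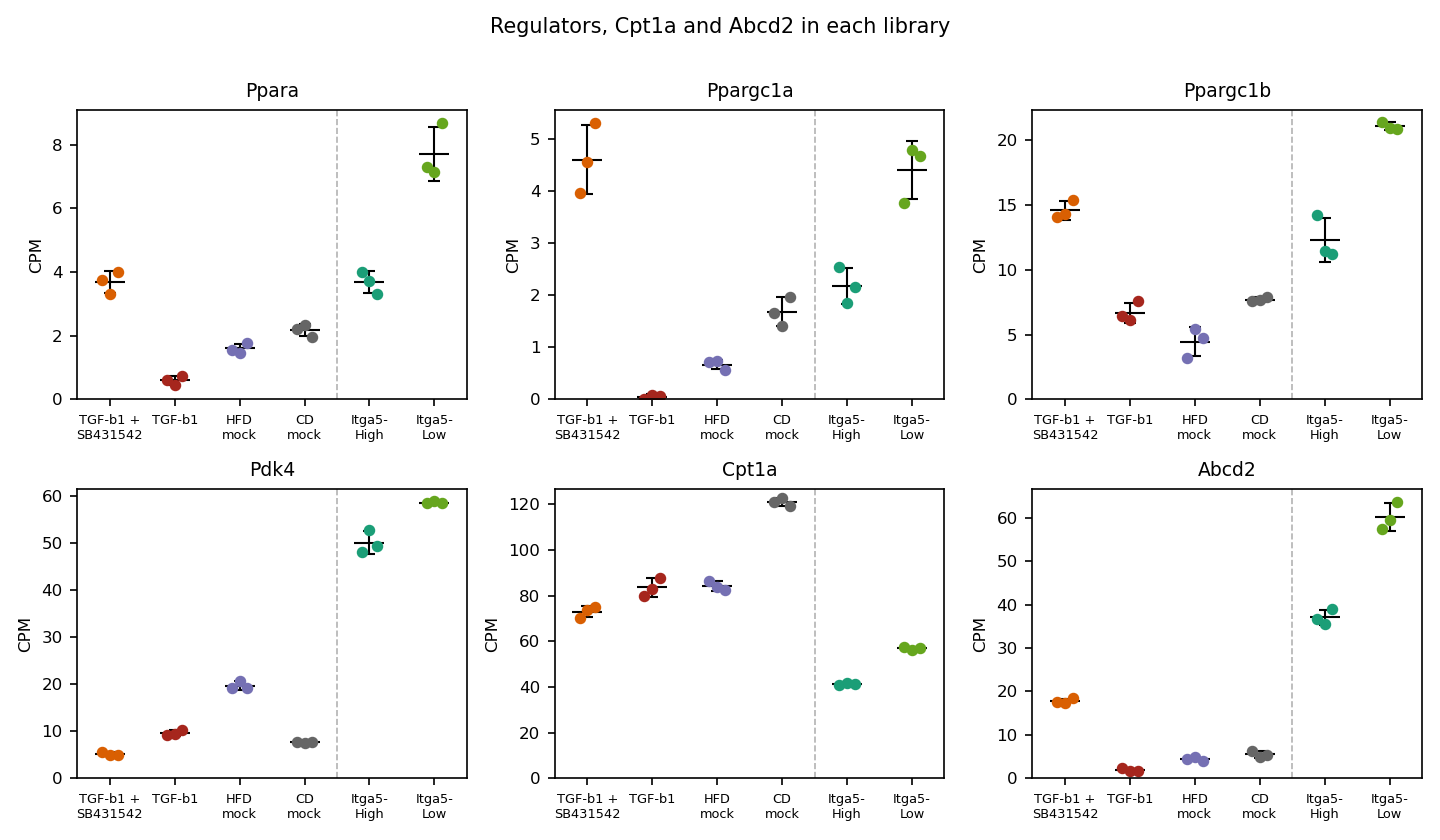
CPM of the 4 regulators, Cpt1a and Abcd2 in each of the 18 libraries (points), with the mean and SD of 3 libraries (bars). Ppara and Ppargc1a lie lowest with TGF-b1 and above CD mock with TGF-b1 and SB431542, while Cpt1a is highest in CD mock. The dashed line parts the tables that were normalized separately.

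Cpt1a, which sets the rate of entry into mitochondria, fell. Cpt1a had 79.9, 82.9 and 87.9 CPM with TGF-b1 and 121.0, 122.7 and 119.2 CPM in CD mock, with no overlap (-0.53 ± 0.0348, adjusted p = 1.09e-17). Its neighbours in the shuttle did not follow in step, as Slc25a20 rose (0.26), Cpt2 was not called (0.03) and Crat, which makes short-chain acylcarnitines, fell by 0.24 on the log2 scale. Along the spiral of chain shortening, Echs1 fell by 0.67, the thiolase Acaa2 by 0.63, the long-chain dehydrogenase Acadl by 0.35 and the short-chain dehydrogenase gene Hadh by 0.22, all on the log2 scale. Acadvl, the dehydrogenase for the longest chains, rose, with 64.6, 69.4 and 69.4 CPM with TGF-b1 and 55.2, 52.9 and 57.2 CPM in CD mock (0.30 ± 0.0463, adjusted p = 1.83e-07). Hadha (0.16) and Etfb (0.22) rose as well, and Hadhb, which shares the promoter region of Hadha, was at 0.05 and not called, turning to -0.102 (adjusted p = 0.0209) with total-count scaling. The rises of Slc25a20 (0.11), Hadha (0.01) and Etfb (0.07) were not called with that scaling. Eci2, an isomerase for unsaturated chains, was called lower (-0.14, adjusted p = 0.0415) with overlapping groups. Acadm and Acads, for medium and short chains, the isomerase Eci1, the reductase Decr1, Etfa and Etfdh were between -0.07 and 0.14 and not called. Over the 20 mitochondrial genes 5 were higher, 7 lower and 8 not called, and their median log2 fold change was -0.002.

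All 5 peroxisomal genes that were called fell, out of 7. Abcd2, which imports very long-chain acyl-CoA, had 2.30, 1.60 and 1.75 CPM with TGF-b1 and 6.33, 4.81 and 5.40 CPM in CD mock, without overlap (-1.54 ± 0.2, adjusted p = 1.27e-09). Acaa1a had 41.3, 42.7 and 43.0 CPM with TGF-b1 and 55.0, 50.6 and 51.9 CPM in CD mock (-0.31 ± 0.049, adjusted p = 5.44e-07). Its near-identical copy Acaa1b, which is not among the 7, was also called lower, and reads could be split between them. Pex11a, which takes part in the division of peroxisomes, fell by 0.51, Abcd3 by 0.41 and the multifunctional enzyme Hsd17b4 by 0.12 on the log2 scale. The other multifunctional enzyme, Ehhadh, was at -0.27 and the branched-chain oxidase Acox3 at -0.15, neither called. The median over the 7 genes was -0.306.

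The thioesterases Acot2, of mitochondria, and Acot1, of the cytosol, release free fatty acids from CoA and moved in opposite directions. Acot2 had 23.03, 25.2 and 22.1 CPM with TGF-b1 and 13.5, 13.7 and 10.4 CPM in CD mock (0.89 ± 0.0874, adjusted p = 2.31e-12). Acot1 had 1.71, 2.93 and 3.57 CPM with TGF-b1 and 6.06, 6.01 and 6.51 CPM in CD mock (-1.14 ± 0.19, adjusted p = 6.24e-07). These genes lie in tandem on chromosome 12, and their transcripts are identical at 93.8% of 1337 aligned positions, with a longest identical run of 273 bases. Reads could therefore be split between them, and both levels are uncertain to that extent. Their promoter windows, shown in part above, were identical at 45.7% of 339 aligned positions.

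**Figure D3:**
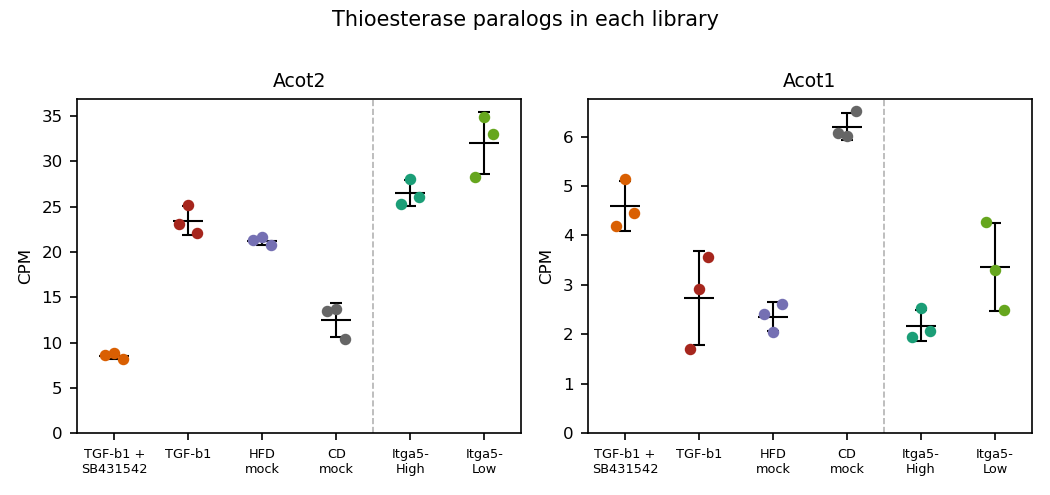
CPM of Acot2 and Acot1 in each of the 18 libraries (points), with the mean and SD of 3 libraries (bars). Acot2 is higher and Acot1 lower in both TGF-b1 and HFD mock than in CD mock, and the dashed line parts the tables that were normalized separately.

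Adipocyte markers were lower with TGF-b1 in 9 of the 9 tested, with a median log2 fold change of -4.805, against -0.144 over the 32 genes. Their summed level was 211.7 to 220.9 CPM with TGF-b1 and 1313 to 1337 CPM in CD mock, and the marker Retn was at 0 with TGF-b1. The preadipocyte and fibroblast markers had 1 gene higher and 8 lower, with a summed level of 15120 to 15170 CPM with TGF-b1 and 10890 to 10950 CPM in CD mock. Mesothelial markers were lower in 7 of 8, with summed levels of 679.3 to 693.9 CPM with TGF-b1 and 2325 to 2358 CPM in CD mock. Endothelial markers were also lower in 7 of 8, at 174.6 to 178.7 CPM with TGF-b1 and 370.5 to 389.9 CPM in CD mock. Their part in the results was not tested. Scaling by total counts moved the median of all genes to -0.164 and the split of the 32 genes to 2 higher and 22 lower, against 21.8% and 47.5% of all genes with that scaling, with a median of -0.293. Without CD mock replicate 2 the median of the 32 genes was -0.095.

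With SB431542 added to TGF-b1 most of the 32 genes were higher, and the largest changes among them were in Ppargc1a, Abcd2 and Ppara. With TGF-b1 and SB431542, 24 of the 32 genes were higher than with TGF-b1 alone, against 41.4% of all genes, 4 were lower, against 38.3%, and 4 were not called. The median log2 fold change was 0.350 over the 32 genes and 0.037 over all genes. All 7 peroxisomal genes rose, with a median of 0.647, while of the 20 mitochondrial genes 13 rose, 3 fell and 4 were not called, with a median of 0.145. The TGF-b1 libraries serve as the reference here and as the treated libraries above, so the comparisons share them.

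Ppargc1a had 3.97, 4.56 and 5.30 CPM with TGF-b1 and SB431542, or 186 counts, against the 2 counts with TGF-b1 alone, a scaled ratio of 86.9 (95% interval for counting error 23.7 to 723, adjusted p = 7.03e-17). Ppara had 3.75, 3.31 and 3.996 CPM with SB431542 and 0.597, 0.443 and 0.742 CPM without it (2.58 ± 0.323, adjusted p = 1.71e-11). No library with SB431542 overlapped one without it for either gene. Ppargc1b had 14.06, 14.27 and 15.37 CPM with SB431542 and 6.40, 6.12 and 7.55 CPM without it (1.11 ± 0.12, adjusted p = 1.43e-11). Pdk4 fell, with 5.63, 4.93 and 4.92 CPM with SB431542 and 9.21, 9.31 and 10.32 CPM without it (-0.90 ± 0.122, adjusted p = 5.95e-09). The kinase and the coactivators thus lay on opposite sides of 0.

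Abcd2 had the greatest change among the enzymes and transporters of the 32 genes, with 17.5, 17.4 and 18.4 CPM with SB431542 and 2.30, 1.60 and 1.75 CPM without it (3.24 ± 0.181, adjusted p = 3.45e-24). Pex11a rose by 1.73, Ehhadh by 0.87, Acox3 by 0.64, Hsd17b4 by 0.37 and Abcd3 by 0.32 on the log2 scale. Ehhadh had 6.71, 8.02 and 6.53 CPM with SB431542 and 4.09, 3.64 and 3.91 CPM without it, with no overlap (adjusted p = 6.54e-06). Acaa1a had 63.6, 66.7 and 68.9 CPM with SB431542 and 41.3, 42.7 and 43.0 CPM without it (0.65 ± 0.0462, adjusted p = 7.95e-17). In mitochondria Acaa2, the last step of the spiral, rose by 1.33, and Echs1 (0.73), Hadh (0.69), Crat (0.69) and Acadl (0.67) came next. The 3 genes of electron transfer, Etfa, Etfb and Etfdh, rose by 0.10 to 0.15. Eci1 (0.42), Acadm (0.33), Eci2 (0.18), Cpt2 (0.17) and Hadhb (0.14) rose too, and Slc25a20, Acads, Hadha and Decr1 were not called, of which Acads and Decr1 turned from below to above 0 with total-count scaling.

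Cpt1a did not rise, while of its related forms, which are not members, Cpt1b was called higher and Cpt1c lower. Cpt1a had 70.2, 73.9 and 74.9 CPM with SB431542 and 79.9, 82.9 and 87.9 CPM without it (-0.20 ± 0.038, adjusted p = 7.19e-06), but was at 0.056 (adjusted p = 0.168) with total-count scaling, which moved the median of all genes to 0.295. Acadvl, called lower at -0.09 (adjusted p = 0.0491), stood at 0.164 (adjusted p = 0.000752) with that scaling and lost its call without replicate 2 or 3 of either group (adjusted p 0.0884 to 0.253), in a replicate block (0.0529) and in DESeq2 (0.0607). Acot2 fell, with 8.65, 8.83 and 8.15 CPM with SB431542 and 23.03, 25.2 and 22.1 CPM without it (-1.45 ± 0.096, adjusted p = 1.98e-18). Acot1 rose, with 4.18, 5.15 and 4.46 CPM with SB431542 and 1.71, 2.93 and 3.57 CPM without it (0.72 ± 0.196, adjusted p = 0.000928), so the paralogs again differed in sign. With total-count scaling 29 genes were higher and 2 lower, against 57.2% and 24.5% of all genes, with a median of 0.608.

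Adipocyte markers rose with SB431542 in 9 of 9, to a summed 4015 to 4056 CPM, against 211.7 to 220.9 CPM with TGF-b1 alone. Macrophage markers were higher in 9 of 10 (1056 to 1077 CPM with SB431542, 587.5 to 602.6 CPM without it) and endothelial markers in 7 of 8 (762.7 to 774.8 CPM with SB431542, 174.6 to 178.7 CPM without it). Mesothelial markers were higher in 6 of 8 (2046 to 2053 CPM with SB431542, 679.3 to 693.9 CPM without it). Of the 6 beige markers Ucp1 and Cidea were at 0 or unmeasured in every undifferentiated group. Dio2, the 1 that was tested, rose (4.37 ± 0.348 CPM with SB431542, 0.405 ± 0.179 CPM without it), and Cox8b had 0.593 ± 0.0697 CPM and Otop1 0.148 ± 0.00485 CPM with SB431542, both at 0 without it. Elovl3, the remaining beige marker, was above 0 in both groups, and a change in it was not tested. Of 9 preadipocyte and fibroblast markers 8 rose and 1 fell, while their summed level was lower, at 5095 to 5128 CPM with SB431542 and 15120 to 15170 CPM without it. The part of these markers in the results was not tested.

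**Figure D4:**
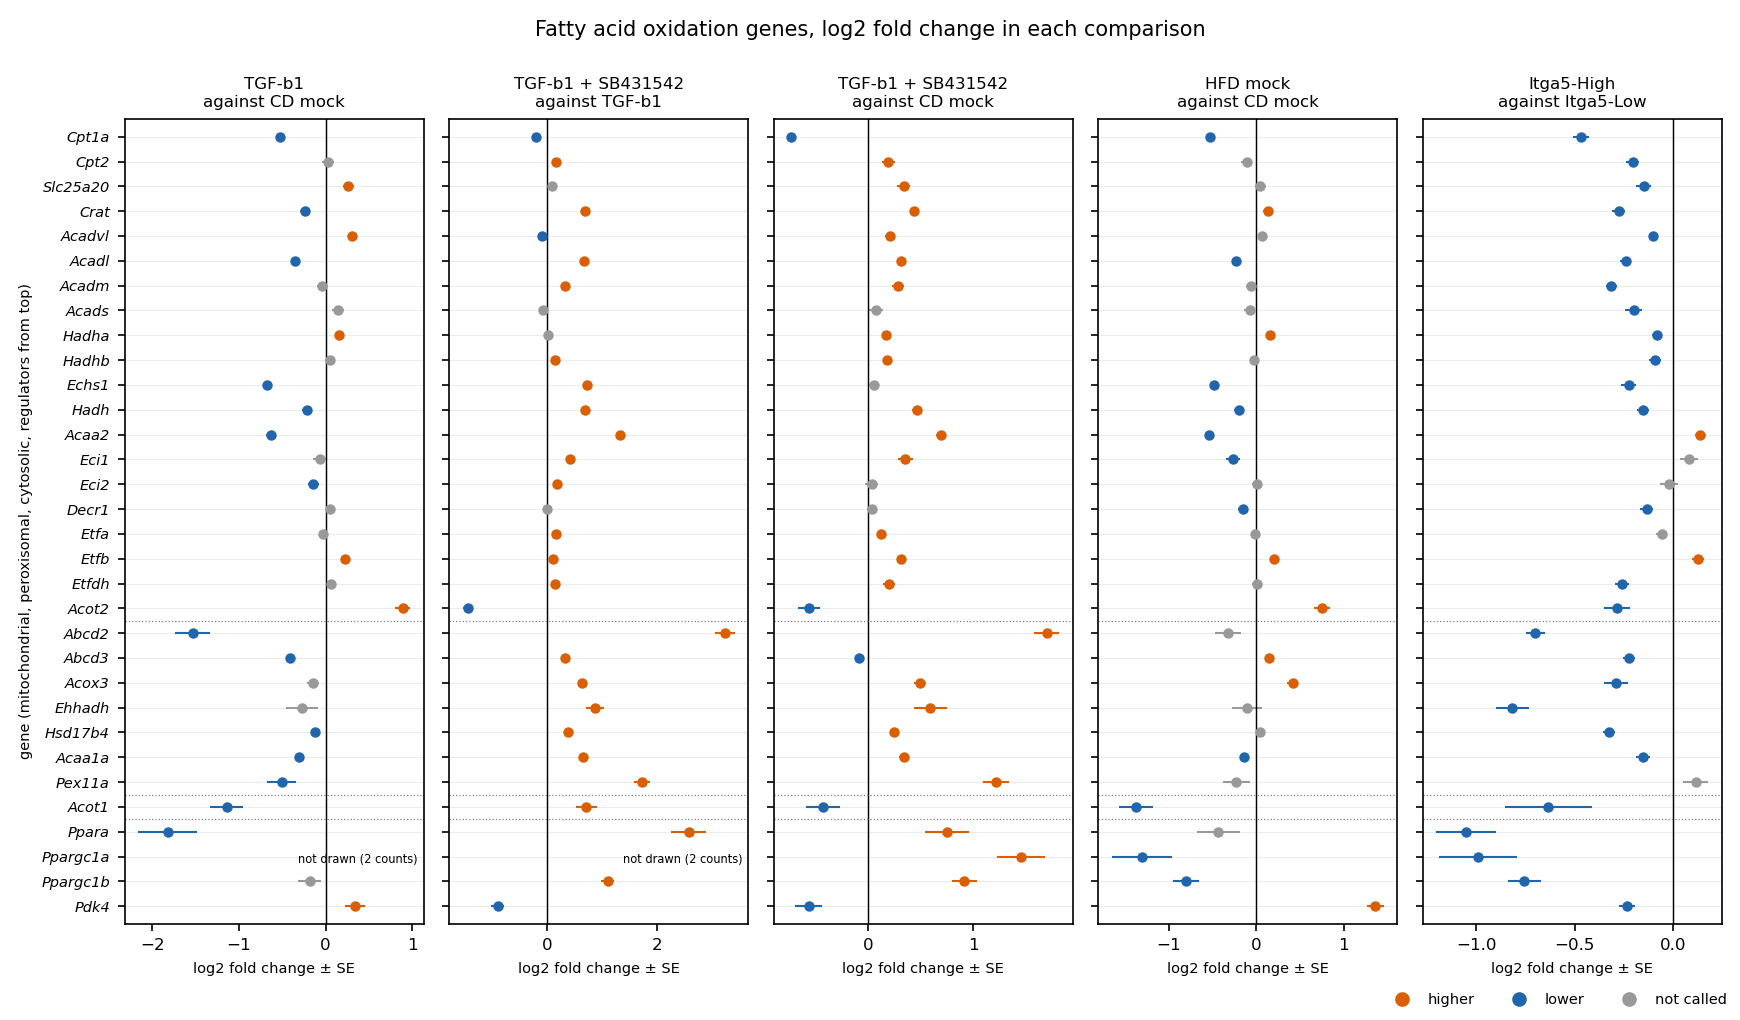
Log2 fold change ± SE of the 32 genes in the 5 comparisons, with orange for higher, blue for lower and grey for not called, on an axis of its own in each panel. Ppargc1a is not drawn where it rests on 2 counts, and dotted lines part the mitochondrial, peroxisomal, cytosolic and regulator genes. Most points lie right of 0 in both SB431542 panels and left of 0 in the Itga5-High panel. The directions of Cpt1a and Acadvl against TGF-b1, and of Abcd3 with SB431542 against CD mock, turn with total-count scaling.

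Set against CD mock, the cells with TGF-b1 and SB431542 also had more of the pathway. Of the 32 genes 23 were higher, against 30.6% of all genes, 5 were lower, against 30.4%, and 4 were not called, with a median of 0.268 (all genes 0.006). Abcd2 had 17.5, 17.4 and 18.4 CPM with TGF-b1 and SB431542 and 6.33, 4.81 and 5.40 CPM in CD mock (1.70 ± 0.12, adjusted p = 1.73e-17). Ppargc1a had 3.97, 4.56 and 5.30 CPM with TGF-b1 and SB431542 and 1.67, 1.415 and 1.97 CPM in CD mock (1.46 ± 0.228, adjusted p = 1.47e-07). For both genes each library with SB431542 was above each CD mock library. Pex11a had 13.4, 14.8 and 12.1 CPM with TGF-b1 and SB431542 and 6.68, 4.95 and 5.83 CPM in CD mock (1.22 ± 0.127, adjusted p = 8.78e-12). Ppargc1b had 14.06, 14.27 and 15.37 CPM with TGF-b1 and SB431542 and 7.56, 7.64 and 7.88 CPM in CD mock (0.92). Ppara had 3.75, 3.31 and 3.996 CPM with TGF-b1 and SB431542 and 2.197, 2.335 and 1.97 CPM in CD mock (0.76). These regulators did not overlap between the groups either. Ehhadh had 6.71, 8.02 and 6.53 CPM with TGF-b1 and SB431542 and 4.13, 5.80 and 3.94 CPM in CD mock (0.59). Acaa1a had 63.6, 66.7 and 68.9 CPM with TGF-b1 and SB431542 and 55.0, 50.6 and 51.9 CPM in CD mock (0.34). The remaining genes called higher had log2 fold changes between 0.12 (Etfa) and 0.69 (Acaa2), and Acads, Echs1, Eci2 and Decr1 were not called.

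The 5 lower genes were Cpt1a, Acot2, Pdk4, Acot1 and Abcd3. Cpt1a had 70.2, 73.9 and 74.9 CPM with TGF-b1 and SB431542 and 121.0, 122.7 and 119.2 CPM in CD mock (-0.73 ± 0.0354, adjusted p = 3.43e-22). It was thus below CD mock both with TGF-b1 alone and with SB431542 added, and these comparisons share the CD mock libraries. Pdk4 had 5.63, 4.93 and 4.92 CPM with TGF-b1 and SB431542 and 7.73, 7.50 and 7.71 CPM in CD mock (-0.56 ± 0.128, adjusted p = 0.000167). Acot2 had 8.65, 8.83 and 8.15 CPM with TGF-b1 and SB431542 and 13.5, 13.7 and 10.4 CPM in CD mock (-0.56 ± 0.106, adjusted p = 1.42e-05). Acot1 was at -0.43 (adjusted p = 0.0212), but was not called with total-count scaling (-0.32). Abcd3 was at -0.09 (adjusted p = 0.0217), at 0.024 (adjusted p = 0.553) with total-count scaling, and not called without CD mock replicate 1 (adjusted p = 0.0544) or SB431542 replicate 1 (adjusted p = 0.0805). That scaling gave 27 genes higher and 3 lower, against 42.3% and 20.2% of all genes, with a median of 0.378 (all genes 0.116). Adipocyte markers were higher in 9 of 9, at 4015 to 4056 CPM with TGF-b1 and SB431542 and 1313 to 1337 CPM in CD mock. Macrophage markers were higher in 10 of 10, at 1056 to 1077 CPM with SB431542 and 533.5 to 545.3 CPM in CD mock. Endothelial markers had 6 genes higher and 2 lower (762.7 to 774.8 CPM with SB431542, 370.5 to 389.9 CPM in CD mock). Mesothelial markers had 1 gene higher and 6 lower (2046 to 2053 CPM with SB431542, 2325 to 2358 CPM in CD mock). Of the preadipocyte and fibroblast markers 5 were higher and 2 lower. Their summed level was lower, at 5095 to 5128 CPM with SB431542 and 10890 to 10950 CPM in CD mock. The part of all these markers was not tested.

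Cells of HFD mice showed a mixed picture in which Pdk4 stood out. Of the 32 genes 7 were higher in HFD mock than in CD mock, against 27.1% of all genes, 11 were lower, against 26.6%, and 14 were not called. The shares are near those of all genes. The median was -0.093 over the 32 genes and -0.008 over all genes, and without HFD mock replicate 3 it was -0.057. With total-count scaling 5 were higher and 17 lower, against 19% and 37.4% of all genes, with a median of -0.177 (all genes -0.091).

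Pdk4 had 19.2, 20.8 and 19.1 CPM in HFD mock and 7.73, 7.50 and 7.71 CPM in CD mock, far apart for 3 libraries each (1.36 ± 0.0991, adjusted p = 1.28e-16). The coactivators fell. Ppargc1a had 0.711, 0.735 and 0.564 CPM in HFD mock, or 27 counts, and 1.67, 1.415 and 1.97 CPM in CD mock (-1.31 ± 0.343, adjusted p = 0.000708). Ppargc1b had 3.20, 5.39 and 4.73 CPM in HFD mock and 7.56, 7.64 and 7.88 CPM in CD mock (-0.80 ± 0.149, adjusted p = 8.85e-06). Ppara had 1.57, 1.47 and 1.76 CPM in HFD mock and 2.197, 2.335 and 1.97 CPM in CD mock, without overlap, but was not called (-0.44 ± 0.246, adjusted p = 0.13).

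Cpt1a was lower in HFD mock, with 86.5, 83.6 and 82.4 CPM against 121.0, 122.7 and 119.2 CPM in CD mock (-0.52 ± 0.0341, adjusted p = 1.26e-17). Acaa2 fell by 0.54, Echs1 by 0.48, Eci1 by 0.26, Acadl by 0.23, Hadh by 0.20 and Decr1 by 0.15 on the log2 scale. Etfb (0.20), Hadha (0.15) and Crat (0.13) rose, but Crat (0.05) was not called with total-count scaling. Cpt2, Slc25a20, Acadvl, Acadm, Acads, Hadhb, Eci2, Etfa and Etfdh were between -0.11 and 0.07 and not called. Among the peroxisomal genes Acox3 had 32.8, 36.7 and 33.5 CPM in HFD mock and 26.54, 26.18 and 23.99 CPM in CD mock (0.42 ± 0.0618, adjusted p = 1.38e-07). Abcd3 rose by 0.15, a call that was lost with total-count scaling. Acaa1a was lower, with 46.2, 46.1 and 50.1 CPM in HFD mock and 55.0, 50.6 and 51.9 CPM in CD mock (-0.14 ± 0.0469, adjusted p = 0.011). Abcd2, Ehhadh, Hsd17b4 and Pex11a were not called.

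The thioesterases parted in this comparison as well. Acot2 had 21.3, 21.7 and 20.8 CPM in HFD mock and 13.5, 13.7 and 10.4 CPM in CD mock (0.75 ± 0.0877, adjusted p = 3.86e-10). Acot1 had 2.42, 2.04 and 2.61 CPM in HFD mock and 6.06, 6.01 and 6.51 CPM in CD mock (-1.38 ± 0.196, adjusted p = 2.66e-08). Against the same CD mock libraries, TGF-b1 gave 0.89 for Acot2 and -1.14 for Acot1.

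The cell types in the HFD libraries differed by their markers. Macrophage markers were higher in 10 of 10, at 2434 to 2458 CPM in HFD mock and 533.5 to 545.3 CPM in CD mock. Mesothelial markers were lower in 8 of 8 (609.6 to 622.4 CPM in HFD mock, 2325 to 2358 CPM in CD mock), as were endothelial markers (120.1 to 128.3 CPM in HFD mock, 370.5 to 389.9 CPM in CD mock). Adipocyte markers had 1 gene higher and 7 lower (907.4 to 919 CPM in HFD mock, 1313 to 1337 CPM in CD mock). Of the preadipocyte and fibroblast markers 1 was higher and 8 lower. Their summed level was nevertheless higher, at 13950 to 14010 CPM in HFD mock and 10890 to 10950 CPM in CD mock. The part of all these markers in the results for Pdk4, the coactivators and the enzymes was not tested.

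After adipogenic differentiation, 26 of the 32 genes were lower in Itga5-High cells than in Itga5-Low cells, with the largest falls in Ppara, Ppargc1a and Ehhadh. The share of all genes called lower was 26.5%. The genes called higher were 2, against 27% of all genes, and 4 were not called. The median was -0.223 over the 32 genes and -0.003 over all genes. Among the 20 mitochondrial genes 2 were higher, 15 lower and 3 not called, with a median of -0.150, and among the 7 peroxisomal genes 6 were lower and 1 was not called, with a median of -0.289. All 4 regulators were lower.

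Ppara had 4.01, 3.71 and 3.31 CPM in Itga5-High and 7.31, 7.13 and 8.68 CPM in Itga5-Low (-1.05 ± 0.151, adjusted p = 2.44e-07). Ppargc1a had 2.55, 1.85 and 2.15 CPM in Itga5-High and 3.78, 4.79 and 4.67 CPM in Itga5-Low (-0.99 ± 0.198, adjusted p = 4.97e-05). Ppargc1b had 14.2, 11.46 and 11.17 CPM in Itga5-High and 21.4, 20.9 and 20.8 CPM in Itga5-Low (-0.76 ± 0.0845, adjusted p = 2.23e-09). None of these 3 genes overlapped between the groups. Pdk4 was also lower, with 48.0, 52.6 and 49.4 CPM in Itga5-High and 58.3, 58.8 and 58.5 CPM in Itga5-Low (-0.23 ± 0.0415, adjusted p = 1.46e-05). Here Pdk4 and the coactivators lay on the same side of 0.

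Ehhadh, the peroxisomal enzyme whose promoter holds the relaxed direct repeat, had 13.7, 12.3 and 12.99 CPM in Itga5-High and 25.8, 21.49 and 21.97 CPM in Itga5-Low (-0.82 ± 0.0834, adjusted p = 2.77e-10). Abcd2 fell by 0.70, Hsd17b4 by 0.32, Acox3 by 0.29 and Abcd3 by 0.22 on the log2 scale. Acaa1a had 92.6, 94.2 and 85.6 CPM in Itga5-High and 102.8, 97.7 and 102.9 CPM in Itga5-Low (-0.15 ± 0.035, adjusted p = 0.000425). Acaa1a and its copy Acaa1b are identical at 95.3% of 1477 aligned transcript positions, so their levels are uncertain in the same way as those of the thioesterases. That holds in every comparison. With TGF-b1 and SB431542 Acaa1b was called higher than with TGF-b1 and than in CD mock, as was Acaa1a. Pex11a was not called (0.12).

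Cpt1a had 40.7, 41.6 and 41.2 CPM in Itga5-High and 57.5, 56.2 and 56.9 CPM in Itga5-Low (-0.47 ± 0.0419, adjusted p = 2.04e-11). The whole carnitine shuttle (4 of 4 genes) and all 4 acyl-CoA dehydrogenases were lower, the dehydrogenases with log2 fold changes between -0.31 (Acadm) and -0.10 (Acadvl). Hadha (-0.08) and Hadhb (-0.09) fell by little, as did Hadh (-0.15), Decr1 (-0.13), Echs1 (-0.22) and Etfdh (-0.26), while Eci1, Eci2 and Etfa were not called. Acaa2 was higher, with 125.5, 125.2 and 126.7 CPM in Itga5-High and 114.4, 113.2 and 114.6 CPM in Itga5-Low (0.14 ± 0.0279, adjusted p = 6.74e-05). Etfb was higher too, with 149.4, 155.8 and 152.7 CPM in Itga5-High and 146.0, 135.0 and 137.1 CPM in Itga5-Low (0.13 ± 0.0299, adjusted p = 0.000439). Acot2 had 25.3, 28.1 and 26.1 CPM in Itga5-High and 28.2, 34.9 and 33.0 CPM in Itga5-Low, and Acot1 1.94, 2.53 and 2.07 CPM in Itga5-High and 4.27, 3.31 and 2.49 CPM in Itga5-Low. Both thioesterases were called lower (-0.28, adjusted p = 0.000496, and -0.63, adjusted p = 0.0146), and the groups overlapped for Acot1. Adipocyte markers had 1 gene higher and 6 lower in Itga5-High, with a summed level of 6903 to 6926 CPM in Itga5-High and 7848 to 7871 CPM in Itga5-Low. Preadipocyte and fibroblast markers had 3 genes higher and 5 lower, with 27910 to 28220 CPM in Itga5-High and 22920 to 23090 CPM in Itga5-Low. Mesothelial markers, of which Msln, Krt8 and Krt18 were at 0 or unmeasured, summed to 100.7 to 104 CPM in Itga5-High and 42.13 to 44.76 CPM in Itga5-Low. Macrophage markers summed to 43.11 to 44.55 CPM in Itga5-High and 22.46 to 23.03 CPM in Itga5-Low. Of the 6 beige markers 2 were higher in Itga5-High, 0 lower and 4 not called. They summed to 52.63 to 55.59 CPM in Itga5-High and 44.36 to 50.57 CPM in Itga5-Low. The part of these markers in the results was not tested.

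Sums over the genes of a compartment weigh abundant genes most and need not follow the medians of the fold changes. The 20 mitochondrial genes summed to 1148 ± 9.54 CPM with TGF-b1 and SB431542, 976.0 ± 7.42 CPM with TGF-b1, 969.9 ± 3.66 CPM in HFD mock and 1032 ± 2.11 CPM in CD mock (SD, n = 3 libraries each). The 7 peroxisomal genes summed to 325.8 ± 4.91 CPM with TGF-b1 and SB431542, 220.8 ± 1.27 CPM with TGF-b1, 283.9 ± 1.47 CPM in HFD mock and 269.8 ± 4.01 CPM in CD mock. HFD mock was thus below CD mock for the mitochondrial sum and above it for the peroxisomal one, each by more than the SDs. The median log2 fold change of the 7 peroxisomal genes was -0.110 there, with 4 not called, and the higher sum came with Abcd3 (107.4 ± 0.854 CPM in HFD mock, 97.1 ± 1.37 CPM in CD mock) and Acox3 (34.3 ± 2.08 CPM in HFD mock, 25.6 ± 1.38 CPM in CD mock). With total-count scaling the peroxisomal sums were 273.5 CPM in HFD mock and 275.4 ± 3.89 CPM in CD mock, so that difference was then within the spread. Itga5-High had 2057 ± 3.73 CPM and Itga5-Low 2244 ± 23 CPM for the mitochondrial genes, and for the peroxisomal ones Itga5-High had 414.1 ± 3.84 CPM and Itga5-Low 508.7 ± 5.78 CPM.

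**Figure D5:**
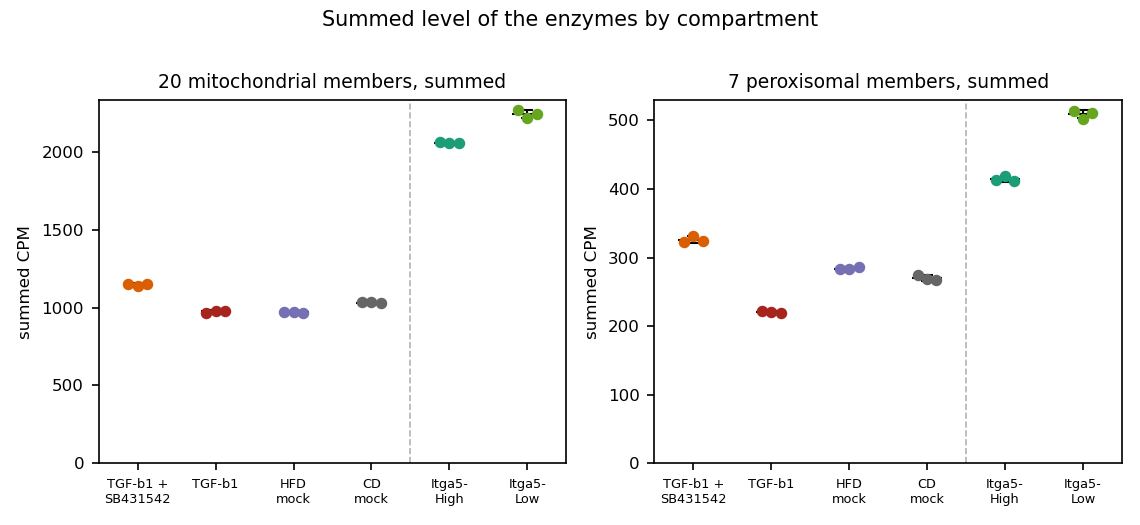
Summed CPM of the 20 mitochondrial and the 7 peroxisomal genes in each of the 18 libraries (points), with the mean and SD of 3 libraries (bars). Among undifferentiated cells the sums are lowest with TGF-b1 and in HFD mock for mitochondria, and lowest with TGF-b1 for peroxisomes. HFD mock lies above CD mock in the peroxisomal panel, a difference within the spread with total-count scaling.

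Further genes of the pathway, 94 on 6 lists, gave the setting. With TGF-b1 against CD mock 14 of 89 tested were higher (15.7%, all genes 33.4%) and 46 lower (51.7%, all genes 34.2%), among them the fatty acid translocase Cd36 (33.3 ± 1.24 CPM with TGF-b1, 142.3 ± 4.46 CPM in CD mock). With SB431542 added to TGF-b1, 57 of 89 were higher (64%, all genes 41.4%) and 23 lower (25.8%, all genes 38.3%) than with TGF-b1 alone, and Ivd, the isovaleryl-CoA dehydrogenase of leucine breakdown, had 51.2 ± 2.78 CPM with SB431542 and 17.8 ± 1.34 CPM without it. Against CD mock, TGF-b1 with SB431542 gave 48 higher (53.9%, all genes 30.6%) and 13 lower (14.6%, all genes 30.4%). The nuclear receptor Esrra, a partner of Ppargc1a, was higher with TGF-b1, at 58.0 ± 2.59 CPM against 31.7 ± 1.21 CPM in CD mock (0.88 ± 0.0513, adjusted p = 1.24e-19). In HFD mock 18 of 89 were higher (20.2%, all genes 27.1%) and 25 lower (28.1%, all genes 26.6%) than in CD mock, shares near those of all genes. The transporter Slc27a1 had 51.9 ± 0.374 CPM in HFD mock and 15.1 ± 0.611 CPM in CD mock (1.78 ± 0.0679, adjusted p = 4.52e-27). In Itga5-High against Itga5-Low 14 of 90 were higher (15.6%, all genes 27%) and 45 lower (50%, all genes 26.5%), and the list of acyl-CoA synthetases and transporters had 5 higher and 3 lower. The acyl-CoA synthetase Acsl1, which activates fatty acids, had 417.3 ± 1.0 CPM in Itga5-High and 758.2 ± 7.05 CPM in Itga5-Low (-0.86 ± 0.0237, adjusted p = 9.91e-29).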

How the data were processed

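Poly(A) RNA of 18 libraries (6 groups of 3, by the treatment, diet and sort labels) was sequenced by the authors. Per the submitters' processing notes, fastp, STAR and featureCounts were used with build mm10; their versions, the strandedness and how reads were divided among transcripts remain unknown here. Deposited tables hold expected counts (estimated counts) per RefSeq transcript, not scaled to library size. They were summed per gene symbol, rounded and matched to the 32 listed symbols with Python 3.11.15 and pandas 2.3.3.

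The model was edgeR's, version 4.0.16 under R 4.3.3, run on all genes (filterByExpr, TMM, quasi-likelihood test, 1 coefficient per group, Benjamini-Hochberg over all genes tested), with 14078 genes in the 12 libraries of undifferentiated cells and 13468 in the 6 of differentiated cells. CPM and TPM were computed here, where CPM use the TMM factors and TPM divide the counts by the transcript lengths. Standard errors come from the fitted model. The fit was tested on simulated data. Alternatives were RLE and total-count scaling, no filter, DESeq2 1.42.0, a replicate block, fits of only the groups compared, and leaving out each replicate. Values in every library are printed for the regulators, Cpt1a, the thioesterases, Ehhadh and Acaa1a where called, and up to 3 called genes of largest change in each direction, among those reaching 1 CPM in either group and whose libraries do not overlap. Members, lists and this rule were chosen with earlier results of these data known. Promoter sequences are RefSeq's (GRCm38.p6). Depth limits the genes of lowest counts, and intervals cover counting error only.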

Additional observations from a re-analysis of the deposited data

How the results depend on the processing

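Total-count scaling in place of TMM mattered most. It gave 2 of the 32 genes higher with TGF-b1 than in CD mock, against 21.8% of all genes with that scaling. With TGF-b1 and SB431542 it gave 2 lower than with TGF-b1, against 24.5%, and 3 lower than in CD mock, against 20.2%. In HFD mock 17 were lower than in CD mock, against 37.4%. The medians became -0.293 for TGF-b1 against CD mock, 0.608 and 0.378 for TGF-b1 with SB431542 against TGF-b1 and against CD mock, -0.177 for HFD mock against CD mock and -0.263 for Itga5-High against Itga5-Low. It turned Hadhb (-0.102, TGF-b1 against CD mock), Cpt1a (0.056), Acadvl (0.164), Acads (0.188) and Decr1 (0.245, all 4 for TGF-b1 with SB431542 against TGF-b1) and Abcd3 (0.024, TGF-b1 with SB431542 against CD mock). The TMM factors that this scaling leaves out were 0.9199 to 0.9233 with TGF-b1, 1.0206 to 1.0223 in CD mock and 1.1014 to 1.1026 with TGF-b1 and SB431542. Leaving them out moves all genes of a comparison alike, not these 32 alone. Why the factors differed between the groups was not tested. Leaving out 1 replicate moved the median between -0.176 and -0.095 for TGF-b1 against CD mock, between 0.235 and 0.277 for TGF-b1 with SB431542 against CD mock and between -0.114 and -0.057 for HFD mock against CD mock. The number of genes lower with TGF-b1 and SB431542 than in CD mock ran from 3 to 5, with 3 without SB431542 replicate 1. No pairing of the libraries by replicate number was seen (correlations -0.024 to 0.021). Replicates differed by little more than counting noise, so a pairing could go unseen. A fit with the replicate block kept 21 called genes for TGF-b1 against CD mock and 27 for TGF-b1 with SB431542 against TGF-b1, where Acadvl lost its call, and changed no other call. DESeq2 lost 1, 5, 2, 2 and 0 calls in the comparisons in the order of the report. Depth limits Ppargc1a, with 2 counts over the TGF-b1 libraries.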

Other observations

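Besides Pdk4, the further genes held 3 kinases that inhibit pyruvate dehydrogenase (Pdk1, Pdk2, Pdk3) and 2 phosphatases that activate it (Pdp1, Pdp2). They are given here together after their values were seen, and each adjusted p is edgeR's. With TGF-b1 against CD mock all but Pdp2 were called lower, with log2 fold changes of -0.36 (Pdk1), -0.92 (Pdk2), -0.14 (Pdk3) and -1.85 (Pdp1). Pdp1 had 5.03 ± 0.581 CPM with TGF-b1 and 18.4 ± 0.619 CPM in CD mock (adjusted p = 2.52e-20). With TGF-b1 and SB431542 against CD mock Pdk1 (0.21), Pdk2 (1.27) and Pdp1 (0.80) were higher, and Pdk3 (-0.50) and Pdp2 (-0.39) lower. Against TGF-b1 alone the same 3 were higher, at 0.57 (Pdk1), 2.18 (Pdk2) and 2.65 (Pdp1), and Pdk3 (-0.36) and Pdp2 (-0.24) were lower. In HFD mock against CD mock Pdk1 was higher (0.41), Pdk3 (-0.13), Pdp1 (-0.64) and Pdp2 (-0.18) were lower, and Pdk2 was not called. In Itga5-High against Itga5-Low Pdk1 was higher (0.09), Pdk2 (-0.35), Pdp1 (-0.88) and Pdp2 (-0.31) were lower, and Pdk3 was not called.

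Cpt1b, the muscle form of the carnitine transferase, had 16.4 ± 2.69 CPM in Itga5-High and 20.9 ± 3.21 CPM in Itga5-Low, and 0.841 ± 0.796 CPM in CD mock. Cpt1a had 41.2 ± 0.473 CPM in Itga5-High, 56.9 ± 0.678 CPM in Itga5-Low and 121.0 ± 1.72 CPM in CD mock. Both forms had a row in each table, and Cpt1b was named after its values were seen. The tables were normalized separately, and this difference was not tested.

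In the deposited tables the counts of Ppargc1a were divided between its 3 RefSeq transcripts as 29.7%, 23.5% and 46.9% in each of the 3 CD mock, the 3 HFD mock and the 3 Itga5-High libraries, although their counts differed. In Itga5-Low replicate 1 the division was 68.0%, 10.7% and 21.3%.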
